A study of Mus musculus with 6 samples.

Results

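The set of 46 genes described here covers the constitutive proteasome, its activators and its assembly chaperones. They are the protein-coding mouse genes whose symbol begins Psma, Psmb, Psmc, Psmd, Psme or Psmg, without the 3 interferon-inducible subunits Psmb8, Psmb9 and Psmb10. The rule uses the prefix and the annotation alone and no expression value, but earlier results of these data were known when it was set. Of 49 such protein-coding genes, 3 were set aside and 46 remained, and 4 pseudogenes with a member prefix were left out. Levels were found for 42 of the 46, and 39 passed the filter on low values, of 9198 genes tested in all. Psmc3ip meets the rule by its name only, since it encodes a meiotic recombination factor and no proteasome subunit.

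The proteasome degrades proteins that carry ubiquitin chains. Its 20S core is a barrel of rings: the outer alpha rings gate the entry, and the inner beta rings hold the catalytic subunits Psmb6, Psmb7 and Psmb5. The 19S regulatory particle caps the core, with a ring of ATPases that unfold the substrate and non-ATPase subunits that bind it and remove its ubiquitin. Other activators can take the place of the 19S particle, and dedicated chaperones assemble both particles. Haematopoietic cells also make the immunoproteasome, in which Psmb9, Psmb10 and Psmb8 replace the constitutive catalytic subunits, and the cortical epithelium of the thymus makes a further form with Psmb11.

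RNA was sequenced from DN3 thymocytes, CD4- CD8- CD44- CD25+ T cell precursors, of 5-week-old mice without treatment, with 3 libraries labelled WT and 3 labelled Hspa9 cKO. Hspa9 encodes GRP75, the mitochondrial Hsp70 chaperone, and the study asked what its loss does in early thymocytes. The sources used here name neither the Cre driver, the deleted exons nor any pooling of animals. The labels do not say that each library is a separate mouse, and p-values then measure only a spread between libraries that may be technical. Hspa9 itself stood at 105, 121 and 122 FPKM (fragment counts relative to transcript length and to library total) in the libraries labelled WT and at 117, 124 and 109.7 FPKM in those labelled Hspa9 cKO. The log2 difference was 0.01 (SE 0.09, limma adjusted p = 0.951). A level read at transcript starts does not check for loss of internal exons, and it gave no separation of the groups, so the groups are called by their labels throughout.

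The summed FPKM of transcript starts was 256513 to 272918 in the libraries labelled WT and 248014 to 252474 in those labelled Hspa9 cKO, without overlap, and the second mean was 94.5% of the first. No read counts came with them, so depth is unknown. Pearson correlations of log2 levels across genes were 0.960 to 0.966 within groups and 0.934 to 0.943 between them. The sorted cell type was read from its markers: Cd44 stood at 0.0663 to 0.806 FPKM and Cd4 at 0 to 0.941 FPKM, while Il2ra, which encodes the sort marker CD25, stood at 158, 155 and 145 FPKM in the libraries labelled WT and at 381, 367 and 383 FPKM in those labelled Hspa9 cKO. It was called higher (log2 1.30, limma adjusted p = 0.000555). The markers of mitosis and of the DN3 stage moved with the labels. Of 20 mitosis genes, 18 were called lower in the libraries labelled Hspa9 cKO (median log2 difference -0.94), and their summed level was 546 to 585 FPKM against 267 to 278 FPKM. Of 14 tested genes of the DN3 stage, 8 were called higher and 1 lower, with sums of 2495 to 3247 FPKM against 3279 to 3645 FPKM. Of the lists for other cells, 2 of 5 double-positive markers and 2 of 2 red cell genes were called lower, 1 of 1 B cell gene, 1 of 2 epithelial genes (Epcam) and 1 of 5 markers of gamma-delta, NK and innate cells higher, another of those 5 lower, and 0 of 2 myeloid markers and 0 of 2 DN1 and DN2 markers either way. The genes Cd79a, Itgam, Foxn1, Krt5, Krt8 and Psmb11 of these lists had no listed level, but other genes of the same lists did. The myeloid and dendritic list summed to 63.8 to 76.5 FPKM under the WT label against 74.7 to 77.7 FPKM. Red cell genes summed to 63.1 to 76.6 against 37.6 to 46.1 FPKM, and epithelial genes to 30.6 to 31.7 against 41.1 to 47.0 FPKM. The 1 listed B cell gene stood at 9.75 to 12.6 against 15.3 to 18.3 FPKM. Other cell types in the libraries are thus not shown to be absent. The part of these markers in the results below was not tested. In bulk RNA, fewer cells of a kind and less RNA per cell cannot be told apart.

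Most proteasome transcripts stood lower in the libraries labelled Hspa9 cKO by small amounts, and a minority of them passed the test. With limma on log2(FPKM + 1) and Benjamini-Hochberg adjustment over 9198 genes at 0.05, 8 of 39 members were called lower, beside 5.61% of all genes tested, and 0 were called higher, beside 8.4%. At an unadjusted p under 0.05, 19 members were lower and 0 higher, beside 12.3% and 19.1% of all genes. All 3 libraries labelled Hspa9 cKO lay below all 3 labelled WT for 25 members, beside 15.7% of all genes, and above them for 1, beside 23.2%. The log2 difference was negative for 34 of 39 members, beside 43.3% of all genes, and the members' median was -0.24 against 0.06 over all genes tested. Of 30 members with a mean of at least 20 FPKM, 29 had a negative difference. The share over all genes at that level is not given here, and the 43.3% includes low genes. With a filter of 5 FPKM the median was 0.018 over all genes and -0.24 over members. Over all genes the calls were 773 higher and 516 lower, and after trimmed-mean scaling of the libraries 633 and 642, with 11 members called lower. The called differences of members ran from -0.41 to -0.29 on the log2 scale. In data simulated for this comparison the test recovered 0% of changes of 0.25 and 10% of changes of 0.5. That simulation changed 50 genes at each size and gave 84 calls in all, far fewer than the data gave. Benjamini-Hochberg adjustment is stricter where fewer genes change, so these rates do not carry over to the calls in the data.

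The number of members called lower fell in every fit that left 1 library out. Over all genes, calls lower also fell in these fits, from 516 to between 202 and 323. Members called lower numbered 1 without WT replicate 1, 5 without WT replicate 2 and 5 without WT replicate 3. They numbered 1 without Hspa9 cKO replicate 1 and 0 without either replicate 2 or replicate 3 of that label. The members' median stayed between -0.28 and -0.20. Member transcripts are short, with a median of 1430 nucleotides against 2861 over the 9194 tested genes with a length. After each library's trend over transcript length was removed, 8 members were called lower, 29 of 39 differences were negative, and the median was -0.21 against 0.08 over all genes. Of the calls over all genes in that fit 35.1% were lower, against 40.0% without that step. The shares of all genes called lower or with a negative difference in that fit are not given here.

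**Figure D1:**
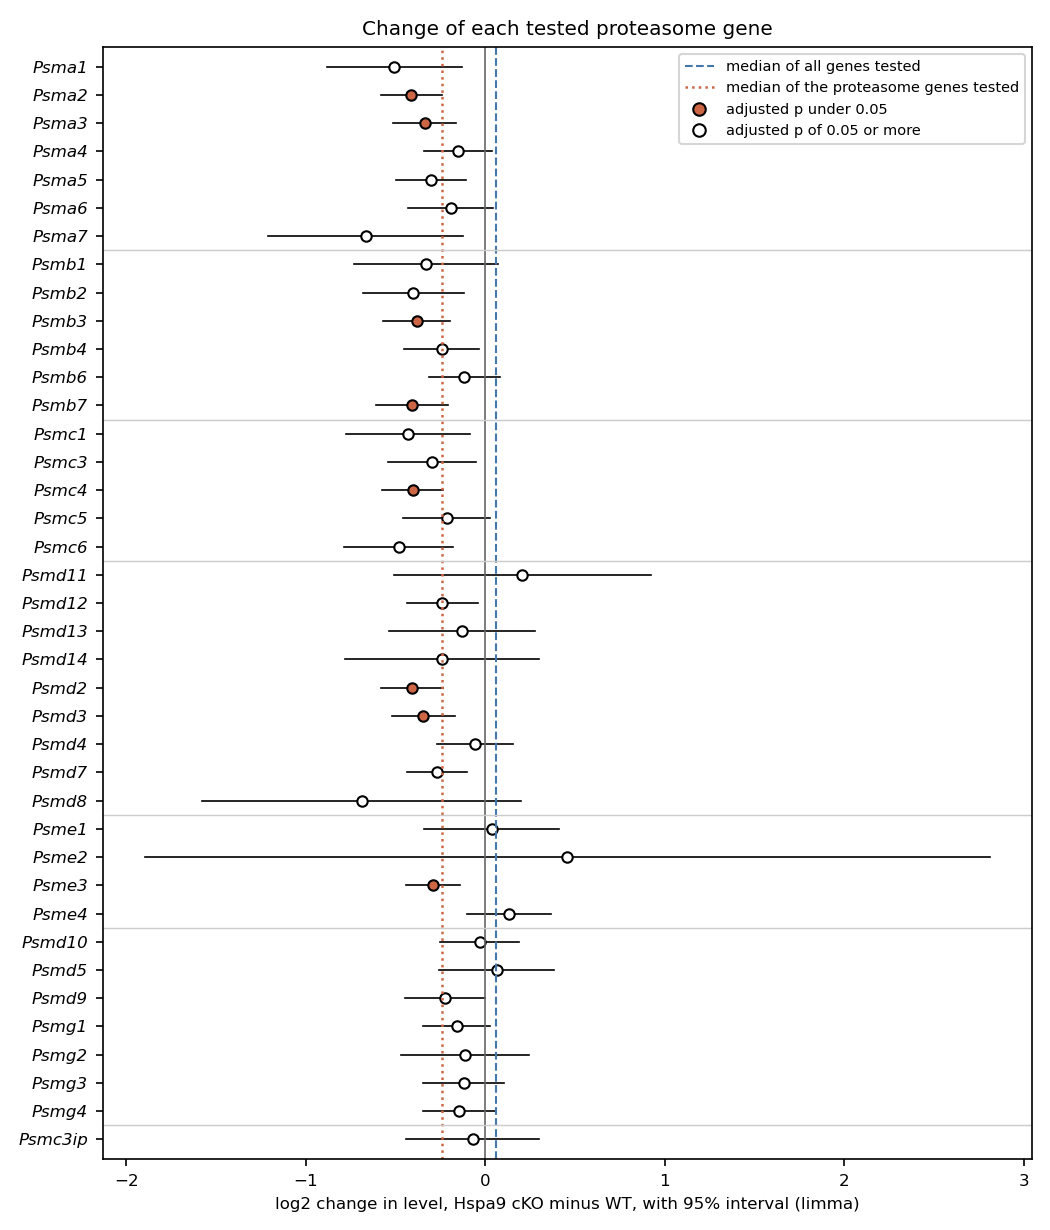
Log2 difference between libraries labelled Hspa9 cKO and WT for each of the 39 tested members, by role, with 95% intervals from limma; called members are filled. The 8 called members lie between -0.41 and -0.29, and the wide interval of Psme2 covers both directions.

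The 20S alpha ring had 7 tested members, of which 2 were called lower and 6 did not overlap between the groups, with a median log2 difference of -0.34. For this role and those below, the shares over all genes tested were 5.61% called lower and 15.7% without overlap in that direction. Psma2 (mm10, chr13:14613240-14674236, ENSMUSG00000015671) stood at 50.9, 53.0 and 56.7 FPKM in the libraries labelled WT and at 40.1, 39.8 and 39.9 FPKM in those labelled Hspa9 cKO. In the pairs of values that follow, the libraries labelled WT come first, replicates 1 to 3 in order. The libraries labelled Hspa9 cKO lay within 1 FPKM of each other, and the mean went from 53.5 ± 2.93 to 39.9 ± 0.165 FPKM (SD, n = 3), a log2 difference of -0.41 (SE 0.07, limma adjusted p = 0.0165). Psma3 (chr12:70974621-70996347, ENSMUSG00000060073), the least abundant ring member apart from Psma8, stood at 16.8, 16.3 and 17.4 FPKM against 13.3, 12.6 and 13.3 FPKM. Its groups did not overlap, and it fell by 0.34 on the log2 scale (SE 0.07, limma adjusted p = 0.0322).

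Psma7 and Psma1 had larger differences than the called members of the ring and wider spread. Psma7 stood at 74.4, 75.8 and 85.2 FPKM in the libraries labelled WT and at 33.8, 58.4 and 59.4 FPKM in those labelled Hspa9 cKO, a log2 difference of -0.67 (adjusted p = 0.103). Replicate 1 of the Hspa9 cKO label was the low one. Psma1 stood at 35.2, 40.9 and 45.6 FPKM against 31.4, 22.9 and 30.7 FPKM, a difference of -0.51 (adjusted p = 0.0818). Psma6, the most abundant ring transcript by FPKM, overlapped at 89.4, 103 and 105 FPKM against 93.6, 79.1 and 87.0 FPKM. Psma4 and Psma5 had differences of -0.15 and -0.30 (adjusted p = 0.240 and 0.0564). Psma8, a paralog of Psma7 known from the testis, stayed at 0.252 to 0.669 FPKM and was not tested.

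**Figure D2:**
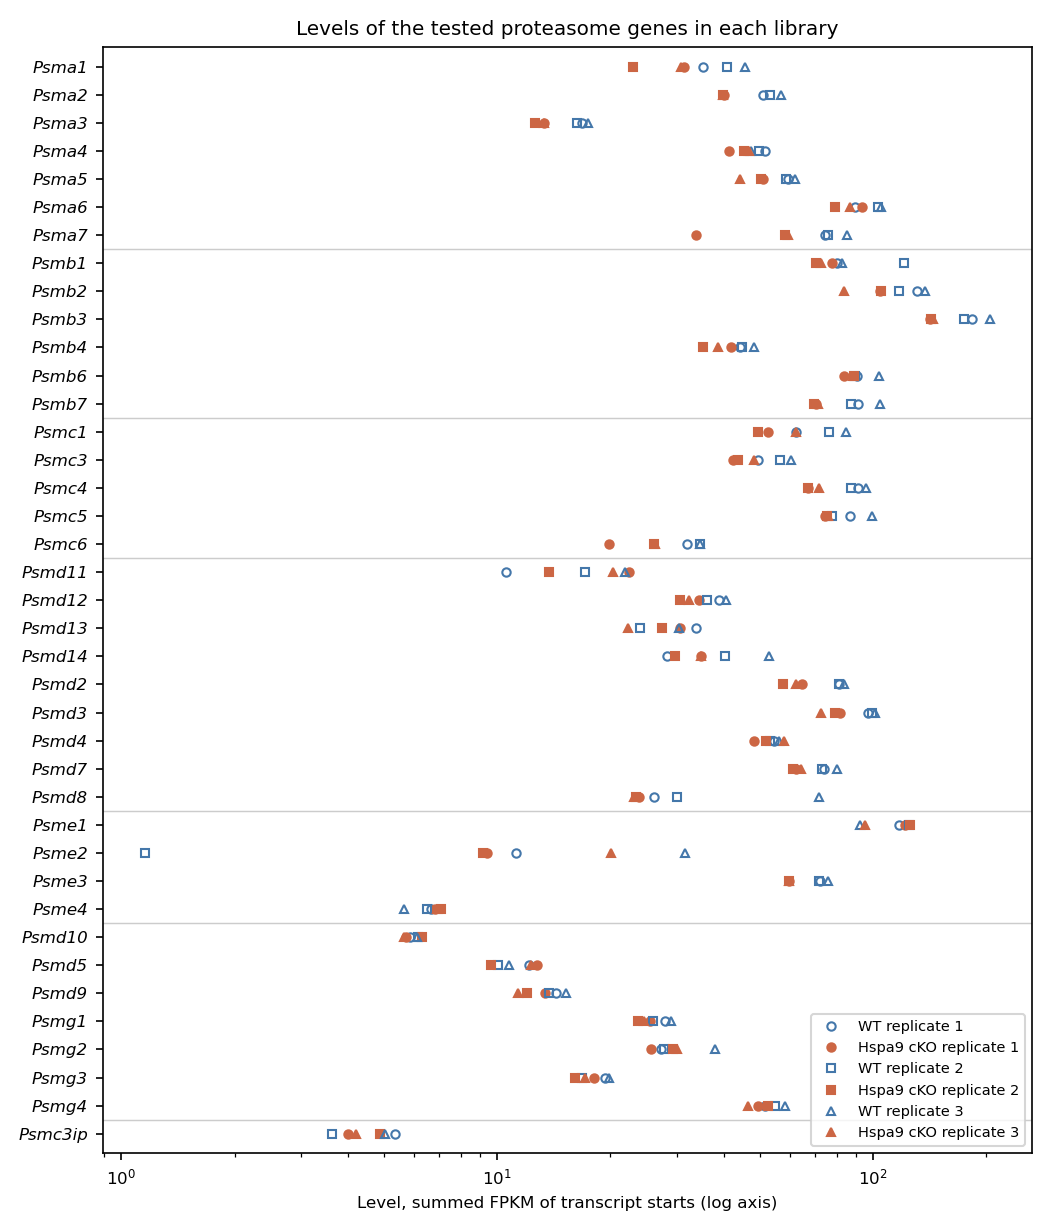
Level in FPKM (log axis) of the 39 tested members in each of the 6 libraries, with open symbols for libraries labelled WT, filled symbols for Hspa9 cKO and 1 shape per replicate number. The filled symbols of Psma2 sit together below its open ones, while those of Psme1 overlap.

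In the beta ring all 6 tested members had libraries labelled Hspa9 cKO below every library labelled WT, and 2 were called, with a median log2 difference of -0.36. Psmb3 (chr11:97703399-97713500, ENSMUSG00000069744), a structural subunit and the most abundant member of all by FPKM, stood at 183, 174 and 204 FPKM against 141, 143 and 144 FPKM. The mean went from 187 ± 15.5 to 143 ± 1.49 FPKM (SD, n = 3), a log2 difference of -0.38 (SE 0.08, limma adjusted p = 0.0274). Psmb7 (chr2:38588036-38644087, ENSMUSG00000026750), the subunit with trypsin-like activity, stood at 91.1, 87.3 and 104 FPKM against 70.5, 69.6 and 71.3 FPKM. It fell by 0.41 on the log2 scale (SE 0.08, limma adjusted p = 0.0277), and its groups did not overlap.

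The other beta subunits did not pass. Psmb2 stood at 131, 117 and 138 FPKM against 104, 105 and 83.6 FPKM (log2 -0.40, adjusted p = 0.0716). Psmb6, with caspase-like activity, had the smallest gap of the ring, 90.5, 89.2 and 104 FPKM against 83.6, 89.0 and 88.1 FPKM (log2 -0.12, adjusted p = 0.382). For Psmb1 the libraries labelled WT held 80.1, 121 and 82.4 FPKM and those labelled Hspa9 cKO 77.7, 70.7 and 72.4 FPKM, and WT replicate 2 stood apart. By transcript ends the same WT library held 1.32 FPKM, and the Psmb1 difference turned from -0.33 to 1.56, neither called. Psmb4 had a difference of -0.24 (adjusted p = 0.117). Psmb5 and Psmb11 had no level under their own gene IDs, as the events of Psmb5 were listed under the ID of Mir686.

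All 5 tested ATPases of the 19S ring were lower in every library labelled Hspa9 cKO than in any labelled WT, and 1 was called, with a median log2 difference of -0.40. Psmc4 (chr7:28041707-28050101, ENSMUSG00000030603) stood at 90.9, 87.3 and 95.9 FPKM against 67.2, 67.2 and 71.9 FPKM. The mean went from 91.4 ± 4.36 to 68.7 ± 2.70 FPKM (SD, n = 3), a log2 difference of -0.40 (SE 0.07, limma adjusted p = 0.0170). Psmc6 had the largest difference of the ring, at 32.1, 34.6 and 34.6 FPKM against 19.8, 26.1 and 26.3 FPKM (log2 -0.48, adjusted p = 0.0527), and did not pass. Psmc1 stood at 62.4, 76.1 and 84.7 FPKM against 52.6, 49.3 and 62.1 FPKM (log2 -0.43, adjusted p = 0.0983). Psmc5 stood at 87.0, 77.6 and 99.3 FPKM against 74.6, 75.4 and 75.7 FPKM and Psmc3 differed by -0.30, with adjusted p of 0.198 and 0.103. The main start of Psmc2 was listed in WT replicate 2 and Hspa9 cKO replicate 3 alone, so it failed the filter.

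Among the 9 tested non-ATPase subunits of the 19S particle, 2 were called lower, 5 did not overlap and 8 had a negative difference, with a median of -0.24. Psmd2 (chr16:20651652-20663414, ENSMUSG00000006998), the large scaffold subunit on which ubiquitin shuttle receptors dock, stood at 81.2, 81.2 and 83.7 FPKM against 64.7, 57.4 and 62.4 FPKM. The mean went from 82.0 ± 1.46 to 61.5 ± 3.70 FPKM (SD, n = 3), a log2 difference of -0.41 (SE 0.07, limma adjusted p = 0.0171). Psmd3 (chr11:98682554-98695979, ENSMUSG00000017221), a subunit of the lid, stood at 96.6, 99.3 and 101 FPKM against 81.8, 79.1 and 72.5 FPKM. It fell by 0.34 on the log2 scale (SE 0.07, limma adjusted p = 0.0293) by starts. The end events listed for Psmd3 held 3.51 to 5.12 FPKM in the 6 libraries, far below its starts. By these ends the difference was 0.13 (limma adjusted p = 0.595). The main one, at 3.43 to 5.05 FPKM, had the same value in each library as the retained form of the Psmd3 intron described below.

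Psmd8 had the largest difference of any member, -0.69 (SE 0.37, adjusted p = 0.253), and it rested on 1 library: without WT replicate 3 it was -0.25. WT replicate 3 held 71.9 FPKM, against 26.1 and 30.1 FPKM in the other WT libraries and 23.9, 23.5 and 23.1 FPKM in those labelled Hspa9 cKO. Psmd7, of the lid, lay just outside the threshold, at 74.1, 73.1 and 80.1 FPKM against 62.3, 61.3 and 64.4 FPKM (log2 -0.27, adjusted p = 0.0505). Psmd12 did not overlap either (-0.24, adjusted p = 0.107). The deubiquitinase Psmd14 and the ubiquitin receptor Psmd4 overlapped, with differences of -0.24 and -0.06, as did Psmd13 at -0.13 and Psmd11 at 0.21. Psmd6 had only minor starts listed, of 0.0867 to 2.43 FPKM, and Psmd1 had no level under its own ID, its events being listed under that of Armc9.

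Of the 4 tested activators 1 was called lower, and their median log2 difference was 0.08. Psme3 (chr11:101316213-101323537, ENSMUSG00000078652), a nuclear activator of the 20S core, stood at 72.0, 71.8 and 75.7 FPKM against 59.6, 59.6 and 59.7 FPKM. The 3 libraries labelled Hspa9 cKO were nearly equal, and Psme3 fell by 0.29 on the log2 scale (SE 0.06, limma adjusted p = 0.0306). Psme1, of the interferon-inducible activator pair, overlapped at 117, 125 and 92.5 FPKM against 122, 126 and 95.4 FPKM (log2 0.03, -0.34 to 0.41 as its 95% interval). Its partner Psme2 ranged from 1.16 to 31.6 FPKM within the WT label alone, at 11.2, 1.16 and 31.6 FPKM against 9.37, 9.17 and 20.02 FPKM, and its log2 difference of 0.46 had an SE of 0.97 and the opposite sign to that of the means. Reads of Psme2 could also be shared with its near copy Psme2b, which had no listed level. Psme4 was the single member with all libraries labelled Hspa9 cKO above all labelled WT, at 6.65, 6.52 and 5.65 FPKM against 6.84, 7.10 and 6.90 FPKM, a log2 difference of 0.13 that did not pass (adjusted p = 0.404). Whether the activators differ from the core subunits in their response was not tested.

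Of the 7 assembly chaperones limma called 0 in either direction. At an unadjusted p under 0.05 in limma 1 was lower (Psmd9), beside 12.3% of all genes. For 2 of the 7 all libraries labelled Hspa9 cKO lay below all labelled WT, beside 15.7% of all genes. In so few genes these counts lie near those shares. The median log2 difference of the chaperones was -0.12. Psmg1, which pairs with Psmg2 to build the alpha ring, stood at 27.9, 25.9 and 29.0 FPKM against 25.5, 23.7 and 24.6 FPKM (log2 -0.16, adjusted p = 0.214). Psmg2 stood at 27.2, 27.8 and 37.9 FPKM against 25.6, 29.4 and 30.0 FPKM and overlapped. Psmg4, the most abundant chaperone by FPKM, stood at 51.5, 54.9 and 58.3 FPKM against 49.5, 52.6 and 46.6 FPKM (log2 -0.14). Psmd9, a chaperone of the 19S base, stood at 14.3, 13.8 and 15.2 FPKM against 13.4, 11.97 and 11.4 FPKM without overlap (log2 -0.22, adjusted p = 0.156). Psmg3, Psmd5 and Psmd10 differed by -0.12, 0.06 and -0.03, all overlapping. Psmc3ip, outside the complex, stood at 5.34, 3.63 and 5.03 FPKM against 4.02, 4.87 and 4.20 FPKM (log2 -0.07).

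Psmb5, Psmc2, Psmd1 and Psmd6, which the gene ID or the starts missed, were recovered when events were placed by the exon edge they name and the kind of event with the higher mean was taken, a level chosen after the tables had been seen. It gave 43 tested members, of which 8 were called lower beside 5.48% of all genes, and 26 did not overlap beside 15.7%. Psmb5, the subunit with chymotrypsin-like activity, stood at 102, 95.6 and 99.4 FPKM against 81.2, 88.7 and 83.2 FPKM (log2 -0.23, adjusted p = 0.0758). Psmd6, a lid subunit, stood at 48.1, 47.3 and 45.8 FPKM against 35.6, 36.1 and 38.0 FPKM and was called lower (-0.36, limma adjusted p = 0.0223). Psmc2 overlapped at 59.2, 46.0 and 61.4 FPKM against 48.8, 50.3 and 42.2 FPKM, and so did Psmd1 at 20.5, 32.2 and 31.3 FPKM against 24.2, 17.7 and 18.7 FPKM. Psma3 was not called at this level.

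Summed on that level, the 4 parts of the 26S particle came to between 78.4% and 80.5% of their WT-labelled means. The 7 alpha subunits summed to 398 ± 20.6 against 312 ± 8.28 FPKM (SD, n = 3), 78.4% of the WT-labelled mean. The share was 80.0% for the 7 beta subunits, 78.9% for the 6 ATPases and 80.5% for the 11 non-ATPase subunits. It was 94.2% for the activators and 91.8% for the chaperones. In these 6 roles no library labelled Hspa9 cKO reached the lowest library labelled WT, as was also so for the summed start FPKM of all genes (94.5%), to which the activators and chaperones lay closer than the parts of the 26S particle did. These sums are descriptions without a test, and the most abundant genes weigh most in them.

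**Figure D3:**
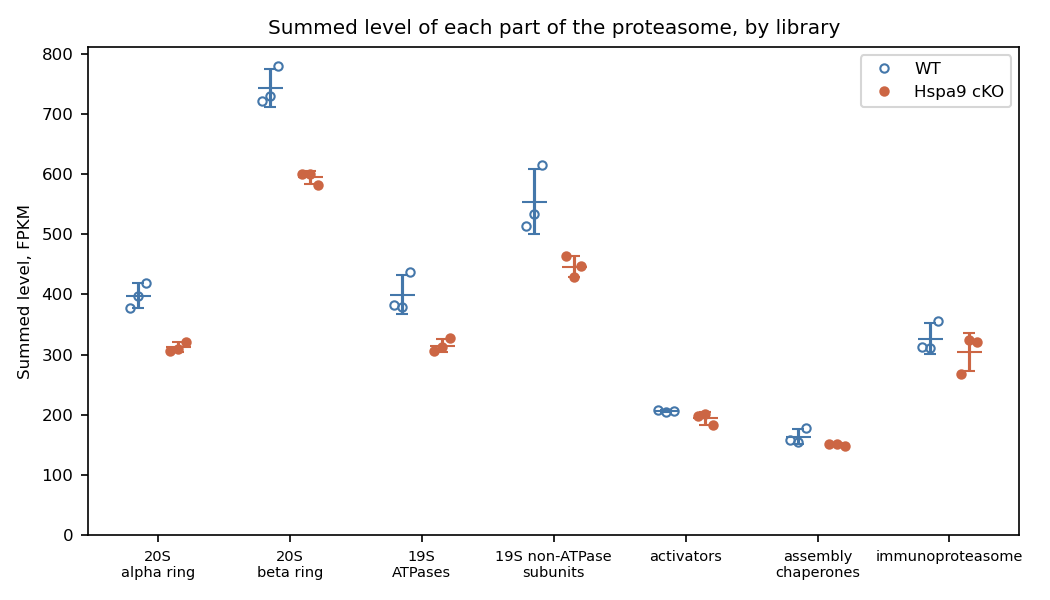
Summed FPKM of each role in the 6 libraries, with open circles for libraries labelled WT and filled circles for Hspa9 cKO, and bars for the mean and SD of 3. The 4 parts of the 26S particle sit at 78.4% to 80.5% of their WT-labelled means, and the immunoproteasome subunits overlap.

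The immunoproteasome subunits overlapped between the labels. Psmb8 stood at 216, 234 and 263 FPKM against 160.3, 263 and 228 FPKM (log2 -0.15, adjusted p = 0.629). Psmb9 stood at 45.8, 34.0 and 41.2 FPKM against 52.9, 40.5 and 39.9 FPKM (log2 0.13, adjusted p = 0.604). Psmb10 stood at 51.1, 43.1 and 51.9 FPKM against 54.5, 21.2 and 53.1 FPKM (log2 -0.29, adjusted p = 0.632), with Hspa9 cKO replicate 2 low. The share of each catalytic pair held by the inducible subunit tests the difference between the kinds directly, and 3 pairs were compared. For Psmb9 of Psmb9 and Psmb6 the share was 29.9 ± 3.26% against 33.7 ± 4.34% (SD, n = 3; exact permutation p = 0.3, adjusted 0.9). For Psmb10 of Psmb10 and Psmb7 it was 34.1 ± 1.60% against 36.6 ± 11.4% (exact permutation p = 0.9, adjusted 0.9), and for Psmb8 of Psmb8 and Psmb5 70.5 ± 2.35% against 71.5 ± 4.47% (exact permutation p = 0.7, adjusted 0.9). All 3 shares overlapped, and with 3 libraries against 3 this two-sided test cannot go below 0.1.

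**Figure D4:**
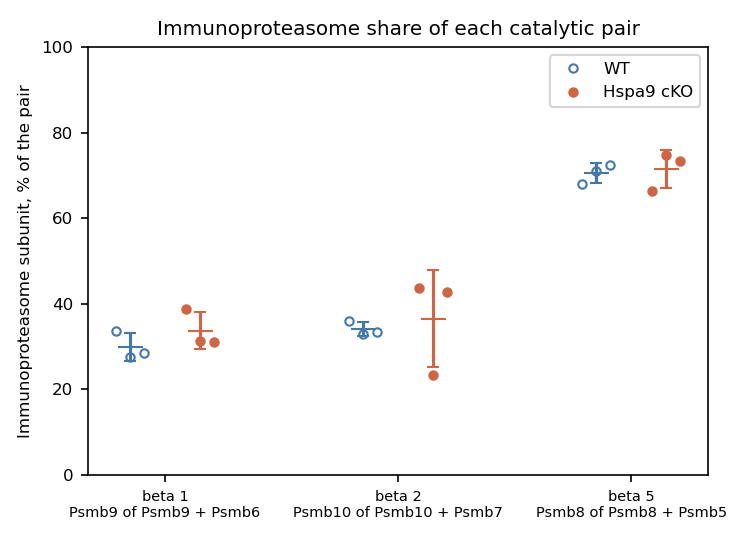
Share of each catalytic pair held by the immunoproteasome subunit, in percent of the pair's summed FPKM, by library, with bars for the mean and SD of 3. Libraries labelled WT (open) and Hspa9 cKO (filled) overlap in all 3 pairs, and the Psmb8 share is near 70% in both.

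Promoter sequences were available for 38 of 46 members in the RefSeq table of GRCm38.p6, each window running from 250 bases before to 50 after a start. Psma8, Psmb1, Psmb2, Psmb7, Psmc3, Psmd3, Psmd7 and Psmg2 had no entry. The last 100 bases before the start are printed for the 6 called members with an entry, since these genes all fell, 5′ to 3′ on the gene's strand, with matches to the searched motifs in capitals.
Psma2, chr13:14613142-14613241, plus strand: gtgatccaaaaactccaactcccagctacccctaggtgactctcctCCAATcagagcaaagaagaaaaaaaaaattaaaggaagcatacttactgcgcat
Psma3, chr12:70974523-70974622, plus strand: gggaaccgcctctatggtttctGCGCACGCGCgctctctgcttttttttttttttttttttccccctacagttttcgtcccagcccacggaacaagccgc
Psmb3, chr11:97703334-97703433, plus strand: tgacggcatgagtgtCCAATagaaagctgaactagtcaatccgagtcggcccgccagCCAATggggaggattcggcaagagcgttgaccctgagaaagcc
Psmc4, chr7:28050093-28050192, minus strand: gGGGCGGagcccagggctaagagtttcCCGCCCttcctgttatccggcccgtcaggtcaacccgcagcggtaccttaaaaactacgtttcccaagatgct
Psmd2, chr16:20651552-20651651, plus strand: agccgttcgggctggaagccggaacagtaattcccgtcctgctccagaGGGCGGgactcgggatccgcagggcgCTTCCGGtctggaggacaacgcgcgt
Psme3, chr11:101316113-101316212, plus strand: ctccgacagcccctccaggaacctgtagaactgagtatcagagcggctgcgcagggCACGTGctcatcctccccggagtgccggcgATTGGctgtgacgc
The capitals mark CCAAT (the motif of NF-Y) in Psma2, Psmb3 and Psme3, the nuclear respiratory factor motif in Psma3, GGGCGG (the GC box) in Psmc4 and Psmd2, CCGGAAG (of ETS factors) in Psmd2 and CACGTG (the E-box) in Psme3. Each was searched on both strands over the full 300-base windows.

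No motif was shared by all 6 stretches. Over the full windows CCGGAAG occurred in 15 of 38 members (39.5%), beside 23.5% of 7141 tested genes with a window. The other shares were 36.8% beside 44.1% for CCAAT, 18.4% beside 13.3% for the nuclear respiratory factor motif, 57.9% beside 70.5% for GGGCGG and 7.89% beside 12.7% for CACGTG. The core of the antioxidant response element, TGACNNNGC, is the motif that Nfe2l1 and its small Maf partners bind. It occurred in 6 members (15.8%, beside 16.9%), and in 0 of the 6 called members with a window. Among those 6 called members CCAAT occurred in 4, the nuclear respiratory factor motif and GGGCGG in 3 each, CCGGAAG in 2 and CACGTG in 1. No test was made on counts among so few genes. Psmb5, Psmb6, Psmd9 and Psme4 hold a match to TGACNNNGC that begins within 50 bases before the start. Psmc6 and Psmd12 hold one that begins at -227 and -247. The match of Psme4 begins at -7 and runs past the start. Those of Psmb5, Psmb6 and Psmd9 are shown with the core in capitals.
Psmb5: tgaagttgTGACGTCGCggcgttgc
Psmb6: aaagagagTGACGGAGC
Psmd9: ctagccggTGACCCCGCccacttcc
In these 3 the core begins at -47, -9 and -31 from the start, respectively. A match is a run of letters and not a bound site, and overlaps among motifs were not removed.

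Genes that control, complete or feed the proteasome were followed from lists of 3 kinds. Of 15 tested genes for other proteasome parts, assembly and associated factors, 3 were called lower and 0 higher, beside 5.61% and 8.4% of all genes. Their median log2 difference was -0.26. Akirin2, which brings proteasomes into the nucleus, stood at 19.6, 19.2 and 15.8 FPKM in the libraries labelled WT and at 7.18, 5.90 and 7.69 FPKM in those labelled Hspa9 cKO. It fell by 1.28 on the log2 scale (SE 0.13, limma adjusted p = 0.00430), a larger drop than that of any called member. Sem1, a small lid subunit whose symbol lacks the prefix, stood at 54.9, 54.9 and 61.8 FPKM against 45.1, 44.4 and 45.3 FPKM (log2 -0.34, limma adjusted p = 0.0345). Zfand2a, a stress-induced protein that associates with the 19S particle, stood at 8.89, 11.3 and 10.5 FPKM against 6.79, 5.80 and 6.80 FPKM (log2 -0.58, limma adjusted p = 0.0276). Pomp, which matures the beta ring, did not overlap at 31.0, 32.1 and 38.3 FPKM against 20.9, 29.7 and 27.7 FPKM but did not pass (log2 -0.37, adjusted p = 0.164).

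Of 8 tested genes of transcriptional control, 2 were called lower and 1 higher, beside 5.61% and 8.4% of all genes. Their median log2 difference was 0.13. Nfe2l1, the factor that raises subunit genes when proteasome activity is short, was higher at 13.9, 12.9 and 11.3 FPKM against 21.2, 18.7 and 17.3 FPKM (log2 0.55, SE 0.11, limma adjusted p = 0.0291). Of its small Maf partners, Mafk and Maff fell. Mafk stood at 49.2, 49.5 and 48.1 FPKM against 29.8, 33.7 and 34.9 FPKM (log2 -0.57, limma adjusted p = 0.0101). Maff stood at 7.82, 7.22 and 7.03 FPKM against 0.0876, 0.241 and 2.05 FPKM (log2 -2.38, limma adjusted p = 0.0152). Mafg, another partner, had a difference of 0.19 that did not pass. Of 14 tested genes for ubiquitin, its activation and its delivery, limma called 0 in either direction, with a median of -0.19. At an unadjusted p under 0.05 there were 3, all lower, beside 12.3% of all genes lower: Nploc4 (-1.23), Vcp (-0.43) and Rad23b (-0.25).

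Some of these calls rested on all 6 libraries. Nfe2l1 and Sem1 were called in no fit that left 1 library out (adjusted p = 0.0529 to 0.0861 for Nfe2l1). Zfand2a was called only without WT replicate 1, and Maff was lost without WT replicate 1, Hspa9 cKO replicate 1 or Hspa9 cKO replicate 2. Akirin2 and Mafk were called in all 6 such fits.

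**Figure D5:**
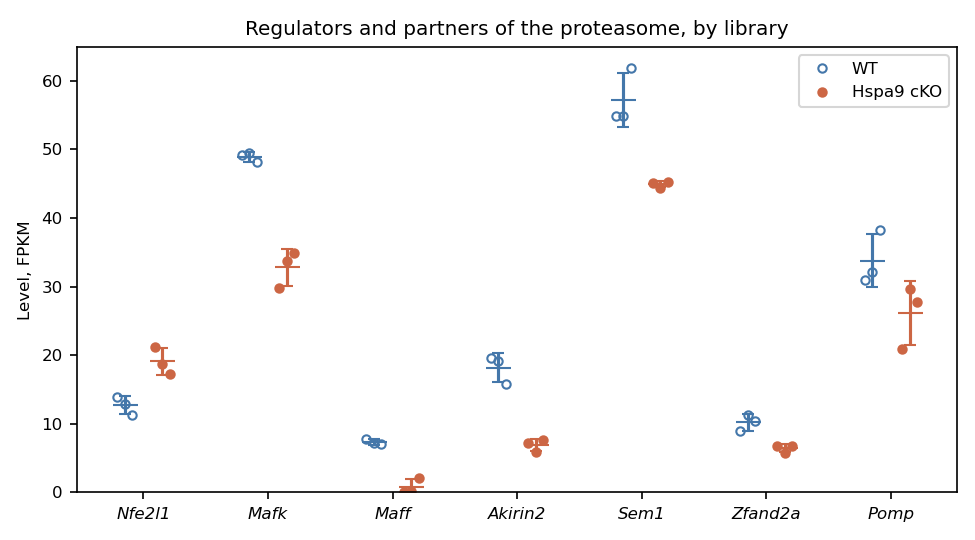
FPKM by library of 7 genes that regulate or complete the proteasome, with open circles for WT and filled circles for Hspa9 cKO labels and bars for the mean and SD of 3. The filled circles lie below all open ones for every gene shown but Nfe2l1, where they lie above.

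Splicing of the members was read from the ratio of retained to spliced introns and of included to skipped exons, a comparison chosen after the tables had been seen. Of 32 ratios in 18 members, limma called 0 in either direction (lowest adjusted p = 0.510), beside 0.279% of 8238 ratios over all genes at the same adjusted threshold. At an unadjusted p under 0.05 in limma there were 3. No share over all ratios at that looser threshold is given here, so that count is not read further. In simulated data at this size 4% of log2 changes of 1 and 66% of log2 changes of 3 were found again, so small shifts were not detectable here. An exon of Psmg4 (chr13:34166061-34166136) was included in 65.0%, 65.5% and 66.9% of its paired signal in the libraries labelled WT and in 60.5%, 64.2% and 62.2% in those labelled Hspa9 cKO (adjusted p = 0.805). An intron of Psmd3 (chr11:98690653-98690916) was retained at 3.86% ± 0.611 against 5.61% ± 1.22 (SD, n = 3, limma adjusted p = 0.585), and its groups overlapped. The FPKM of its retained form equalled that of the main end event listed for Psmd3, so both are the same signal.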

How the data were processed

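Groups and replicate numbers came from the sample titles, 3 libraries per label. Per the labels' protocols, the random-primed libraries used either poly(A) isolation or an rRNA removal kit, without saying which. Per the submitters' processing notes, cutadapt 1.9.1 was used and the build was mm10; aligner, assembler and annotation: not given in the sources used here. The authors' deposited tables list, per the file headers, an FPKM estimate for each event of transcript structure. An unlisted event was set to 0, which can be a failed estimate. The tables hold no counts, so depth is unknown and no counting interval can be given.

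Members were found by Ensembl gene ID. Start events sharing that ID were added up as FPKM (end events where no start was listed), with repeats dropped. Genes with at least 1 FPKM in at least 3 libraries were tested with limma 3.58.1 (R 4.3.3; trend and robust, two-sided) on log2(FPKM + 1), with Benjamini-Hochberg adjustment over all 9198 genes and a threshold of 0.05; fold changes on this scale understate changes of low genes. On simulated data with changed genes the test made 84 calls, 4 of them false. Exon edges, positions and transcript lengths came from GENCODE M21 and promoters from RefSeq. The members, gene lists and tests were chosen with earlier results of these data known. Values in every library are given for called members, the 2 most abundant and the 2 with the largest difference in each role, and those whose sign changes with the event kind; list genes are named where called, with the immunoproteasome, Pomp and Nfe2l1. Alternatives covered the pseudocount, filter, scaling, event kind, gene assignment, variance model, replicate number and each library left out; transcript length and the combined edge level were added after the data had been seen.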

Additional observations from a re-analysis of the deposited data

How the results depend on the processing

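The replicate numbers did not pair the libraries (correlations of same-numbered deviations of 0.019, -0.024 and -0.022), and with the replicate number as a block limma called 161 genes higher and 84 lower and 0 members lower, and Nfe2l1, Sem1, Zfand2a, Mafk and Maff also lost their calls. Under the other alternatives that kept all 6 libraries 7 to 11 members were called lower and 0 higher. Trimmed-mean scaling moved the members' median to -0.29, with 633 genes higher and 642 lower, and median-ratio scaling gave 649 and 619; 50.4% and 48.8% of calls were then lower, against 40.0%. Leaving out 1 library gave 233 to 514 genes higher, 202 to 323 lower and 0 to 5 members lower.

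Apart from the block, Psma3 lost its call by transcript ends and by the combined edge level, and Psme3 without the variance trend. By ends Psmd3 turned to 0.13, where the listed ends mainly held the signal of its retained intron. Psmb1 turned to 1.56 by ends, where WT replicate 2 held 1.32 FPKM. Why the other end signal was missing was not tested. Psma2 and Psmd2 were each called in 3 of 6 fits without 1 library, Psmb3, Psmb7 and Psmc4 in 2, and Psma3, Psmd3 and Psme3 in 0. Removing the length trend turned Psmb6 to 0.018, Psmc3ip to 0.020, Psmd10 to 0.042, Psmd4 to 0.029 and Psmg3 to 0.0066, none called. The 2 scalings turned Psme1 to -0.015 and -0.0083 and Hspa9 to -0.039 and -0.033. Uncalled differences that changed sign without 1 library ranged from -0.21 to 0.017 for Psmc3ip, -0.067 to 0.43 for Psmd11, -0.13 to 0.0047 for Psmd4, -0.0065 to 0.18 for Psmd5, -0.093 to 0.16 for Psme1, -0.61 to 1.35 for Psme2, -0.19 to 0.038 for Psmg2, -0.057 to 0.054 for Hspa9, -0.31 to 0.049 for Psmb8 and -0.51 to 0.15 for Psmb10. The tables give no read counts, so what depth limits could not be measured.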
